A study of Mus musculus with 9 samples.

Results

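The genes described here encode the subunits of the proteasome and its dedicated base chaperones, read in livers of mice that lack SND1 or carry a mutated form of it. They were chosen by name. Of the 19944 genes in the table, 38 had a symbol made of Psma, Psmb, Psmc or Psmd and a number. The 3 immunoproteasome genes Psmb8, Psmb9 and Psmb10 were set aside, and the other 35 all had a mean of at least 10 normalized counts over the 9 libraries. The member nearest that minimum was Psma8, with a mean of 18.1, and no matching gene fell under it. The 35 comprise 8 genes of the alpha ring, 7 of the beta ring, 6 base ATPases, 3 other base subunits, 8 lid subunits and 3 base assembly chaperones. They lie on 16 chromosomes.

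The study sequenced mRNA from whole livers of male mice on the FVB background, taken at 60 days of age, on normal chow. The KO group had the Snd1 gene knocked out, the KI group carried a knock-in that mutates the Tudor domain of SND1, and the WT group had the intact gene, with 3 libraries in each. The question was what the Tudor domain contributes to transcription. SND1, also called Tudor-SN, combines nuclease-like repeats with a Tudor domain, a fold that reads methylated arginine. The sources used here do not give the design of the KO allele, the mutated residues, or which animals shared a litter, so all p-values measure only the spread between these samples, which may be partly technical. The libraries held 59678412 to 66384374 reads in genes. The label gives the cell type as hepatocyte although the material was tissue, and 6 hepatocyte marker genes such as Alb and Cps1 were all detected in every library, with 3.87% to 7.95% of the normalized counts. Transcripts of the exocrine pancreas, from 10 marker genes, took 0.418% and 4.91% of the normalized counts in KI_1 and KI_3 and 1.03% in WT_3, against at most 0.00524% in each of the other libraries. Snd1 itself had 227, 414 and 359 normalized counts in KO, 5373, 7941 and 5595 in KI and 6951, 8446 and 6512 in WT. The KO libraries were thus far below the others, as labelled, while KI and WT overlapped, so this gene does not check those 2 labels.

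The proteasome is the protease that destroys proteins tagged with ubiquitin. Its core particle is a barrel of alpha and beta rings, with the proteolytic sites inside on Psmb5, Psmb6 and Psmb7. The regulatory particle caps the barrel: its base unfolds substrates with a ring of ATPases, and its lid removes the ubiquitin chain. Cells are known to raise all subunit mRNAs together when proteolysis is impaired, through the transcription factor NRF1 (Nfe2l1) acting on antioxidant response elements in the promoters. Mice without Nfe2l1 in hepatocytes are known to develop fatty liver disease.

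Proteasome subunit mRNAs were close to flat across the 3 genotypes. In KO against WT, 1 of the 35 members passed the test, the chaperone gene Psmd5, which was lower (limma on log2(normalized count + 1), Benjamini-Hochberg adjusted p under 0.05 over 15238 genes). In the same comparison 8.83% of all genes tested were called, 4.63% higher and 4.2% lower. In KI against WT limma called 0 of 35 members, where 0.0263% of all genes were called, 0.00656% higher and 0.0197% lower. For KI against KO it called 0 of 35 members, where 8.45% of all genes were called, 3.6% higher and 4.85% lower. At an unadjusted p under 0.05 there was 1 member in KI against WT, Psmc2, against 11.6% of all genes. At that level there were 4 members in KI against KO, namely Psma2, Psma7, Psmd5 and Psmd6, against 24.9% of all genes. The count tests edgeR and DESeq2 on recovered reads called Psmd5 alone of the members in KO against WT, where they called 7.94% and 15.1% of all genes. They called 0 members in KI against WT, where edgeR called 0.00656% and DESeq2 2.44% of all genes. Between KI and KO edgeR called 0 members and 7.88% of all genes, and DESeq2 called 1, Psmd5, and 15.0% of all genes.

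Promoter windows are printed for 5 members: Psmd5, as the called gene, Psmb5, Psmb6 and Psmd9, whose windows hold an antioxidant response element core near the start, and Psmc2, the ATPase gene with the smallest p in KI against WT. They are RefSeq windows of build GRCm38.p6, from 250 bases before to 50 bases after the RefSeq start, 5′ to 3′ on the gene's own strand, with matches to either motif searched in capitals. Psmd5 (chr2:34870913-34871212, minus strand), Psmb5 (chr14:54617946-54618245, minus strand), Psmb6 (chr11:70525107-70525406, plus strand), Psmd9 (chr5:123227940-123228239, plus strand) and Psmc2 (chr5:21785025-21785324, plus strand) read as follows.
Psmd5: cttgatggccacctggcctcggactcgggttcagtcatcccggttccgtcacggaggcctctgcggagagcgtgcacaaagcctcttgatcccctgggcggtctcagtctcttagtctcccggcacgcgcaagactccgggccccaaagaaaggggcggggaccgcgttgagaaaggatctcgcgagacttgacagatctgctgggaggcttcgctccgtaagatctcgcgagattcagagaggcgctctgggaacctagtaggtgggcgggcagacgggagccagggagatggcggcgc
Psmb5: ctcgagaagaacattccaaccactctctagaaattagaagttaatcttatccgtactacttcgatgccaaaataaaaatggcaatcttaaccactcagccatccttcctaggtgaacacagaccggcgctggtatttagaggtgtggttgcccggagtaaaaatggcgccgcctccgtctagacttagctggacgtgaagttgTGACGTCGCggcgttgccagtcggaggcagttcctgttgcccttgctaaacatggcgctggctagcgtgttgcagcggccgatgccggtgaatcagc
Psmb6: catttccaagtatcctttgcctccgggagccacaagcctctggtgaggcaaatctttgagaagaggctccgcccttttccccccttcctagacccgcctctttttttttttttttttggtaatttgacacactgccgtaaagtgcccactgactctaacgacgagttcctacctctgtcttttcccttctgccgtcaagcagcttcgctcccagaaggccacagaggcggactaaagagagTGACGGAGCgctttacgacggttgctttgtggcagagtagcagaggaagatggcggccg
Psmd9: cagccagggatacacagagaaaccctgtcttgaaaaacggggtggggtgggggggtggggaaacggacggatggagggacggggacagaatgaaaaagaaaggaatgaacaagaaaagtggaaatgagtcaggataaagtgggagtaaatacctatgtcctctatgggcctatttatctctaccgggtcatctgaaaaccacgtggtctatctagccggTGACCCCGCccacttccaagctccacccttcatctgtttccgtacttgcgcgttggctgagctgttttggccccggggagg
Psmc2: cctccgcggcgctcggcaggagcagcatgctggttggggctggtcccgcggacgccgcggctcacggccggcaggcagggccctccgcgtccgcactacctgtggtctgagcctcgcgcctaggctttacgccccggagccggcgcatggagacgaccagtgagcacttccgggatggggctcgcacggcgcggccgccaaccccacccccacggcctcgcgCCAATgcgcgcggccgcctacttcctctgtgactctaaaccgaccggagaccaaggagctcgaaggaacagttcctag

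In these windows the response element core, searched as TGACNNNGC on both strands, began at position -47 in Psmb5, -9 in Psmb6 and -31 in Psmd9, counted from the RefSeq start. Psmc6 at -227 and Psmd12 at -247 also held it. In all, 5 of 28 members with a window had a match (17.9%), against 12.4% of 32851 windows of the same length. The CCAAT box, the site of the NF-Y factor, was searched as CCAAT on both strands and was found in 11 of 28 members (39.3%), against 37.4% of all windows. Counted by gene the shares were 39.3% of members and 41.1% of all genes. Psmc2 held the CCAAT box at position -28. The Psmd5 window held neither set of letters. That window lies inside the gene as annotated by GENCODE, which starts at 34874968 on the minus strand. The Psmd9 window also lies inside its GENCODE gene, which starts at 123169413. The GENCODE starts of these 2 genes were not searched. Heat shock element pairs searched as GAANNTTC and as TTCNNGAA, which read the same on both strands, were in 1 member each (3.6%), Psmb5 and Psmd4, against 7.9% and 8.5% of all windows. Counted by gene they were in 9.0% and 9.6% of all genes. The other 7 members were not matched to a window.

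The flatness can be given as intervals. The 95% interval of the log2 fold change lay within 1.5-fold either way for 33 of the 35 members in KO against WT, all but Psmd5 and the barely expressed Psma8. Of all genes tested 32.2% had such an interval there. In KI against WT and in KI against KO it did so for 34 members each, all but Psma8, against 38.7% and 32.1% of all genes. Without Psma8, the half-width of these intervals was 0.19 to 0.34 on the log2 scale, so smaller shifts were not resolvable with 3 libraries a group. The median absolute log2 fold change of the members was 0.108 in KO against WT, 0.0724 in KI against WT and 0.0771 in KI against KO, beside 0.283, 0.206 and 0.282 over all genes tested. These medians and the interval shares over all genes take in every gene with a mean of at least 10. They were not matched to the mean values of the members, so part of the gap may come from genes with low counts. The members also varied little within groups. Their median within-group SD was 0.112 on the log2 scale, beside 0.264 over all genes tested and 0.172 over the 6909 tested genes in the same range of mean values.

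**Figure D1:**
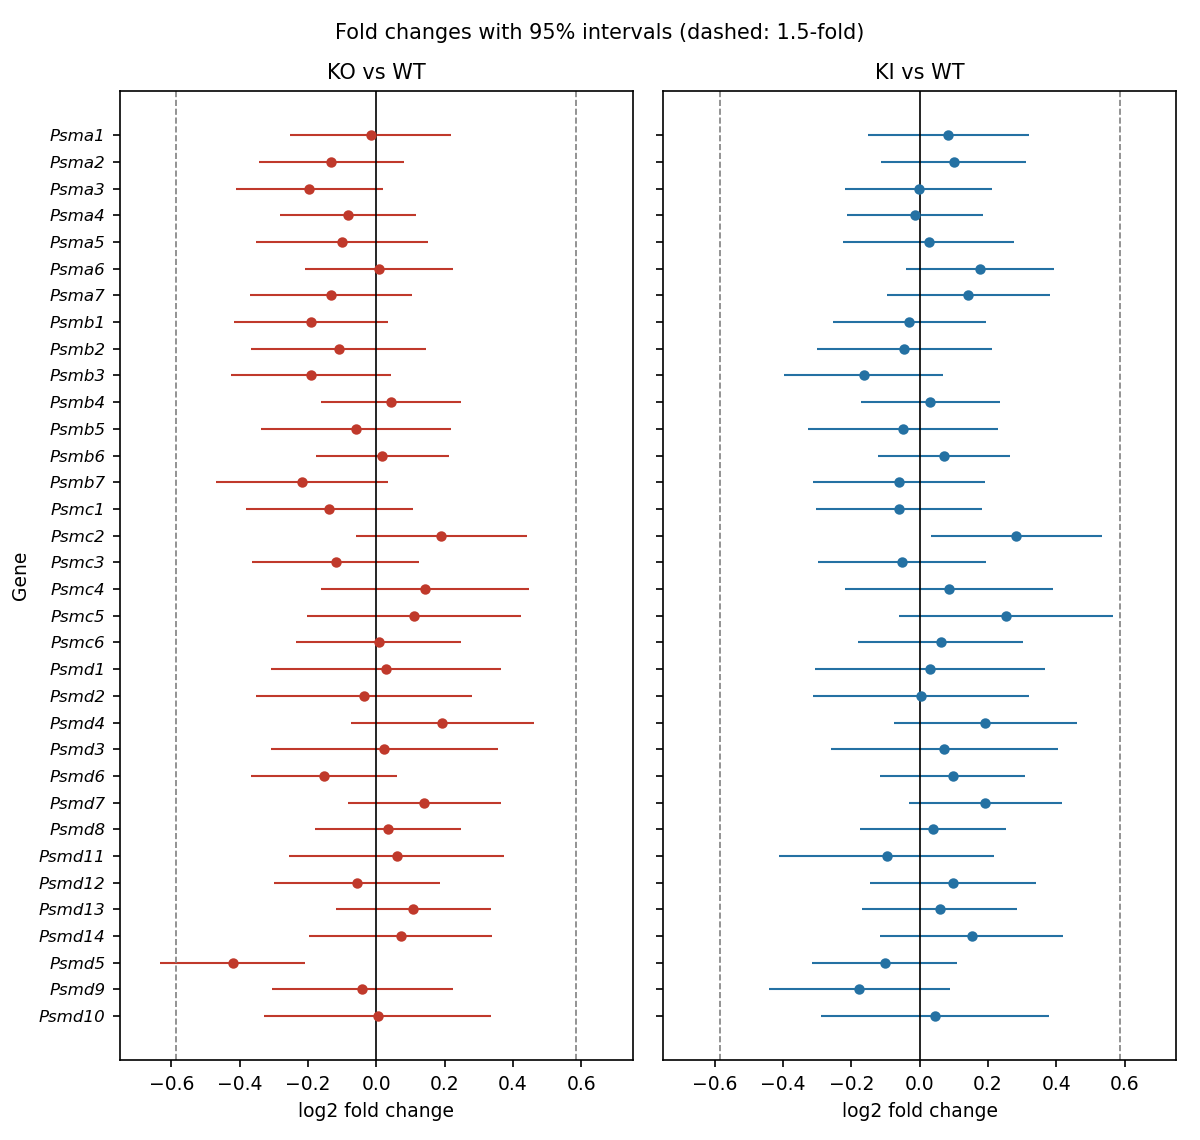
Log2 fold changes with 95% intervals for 34 members (Psma8 is left out), KO against WT on the left and KI against WT on the right, with dashed lines at 1.5-fold. Psmd5 in KO, at -0.42, is the point farthest from 0, and its interval is the one that crosses a dashed line.

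Signs were mixed. The median log2 fold change was -0.04 in KO against WT, 0.04 in KI against WT and 0.07 in KI against KO, beside 0.00, 0.00 and 0.01 over all genes. It was positive for 16, 22 and 29 of the 35 members in these comparisons, against 50%, 50.7% and 51.0% of all genes. The last 2 counts follow the scaling: with every library scaled to the same total they were 9 and 12, against 37.3% and 40.4% of all genes, as the median of all genes moved to -0.09 in both. With equal totals KI_3, with 4.91% of its normalized counts in pancreatic markers, was the lowest library for 24 of 34 members. On the authors' scaling it was the lowest for 0. Without the 3 libraries with pancreatic transcripts, which leaves 1 KI library, the counts on the authors' scaling were 27 and 31. The median of all genes was then -0.01 in both. The part of the pancreatic transcripts was not tested. Relative to the median of all genes the members stood at 0.03 in KI against WT and 0.06 in KI against KO with the authors' scaling, and at 0.03 and 0.05 with equal totals. KO and WT libraries did not overlap for 5 members, Psma2, Psma3, Psma4, Psmd5 and Psmd6, all lower in KO (14.2% of all genes), and for 0 members in the higher direction (15.0% of all genes). KI lay above WT without overlap for Psma6, Psmc2, Psmd4 and Psmd7 (9.47% of all genes) and below it for Psmb3 (10.2%). KI lay above KO without overlap for 8 members (12.3% of all genes) and below it for 0 (14.1%). With equal totals the counts were 5 higher and 5 lower in KO against WT (14.4% and 14.2% of all genes), 0 and 1 in KI against WT (4.4% and 13.0%), and 1 and 0 in KI against KO (6.89% and 16.5%). In bulk liver, fewer cells of a type and less RNA per cell cannot be told apart.

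**Figure D2:**
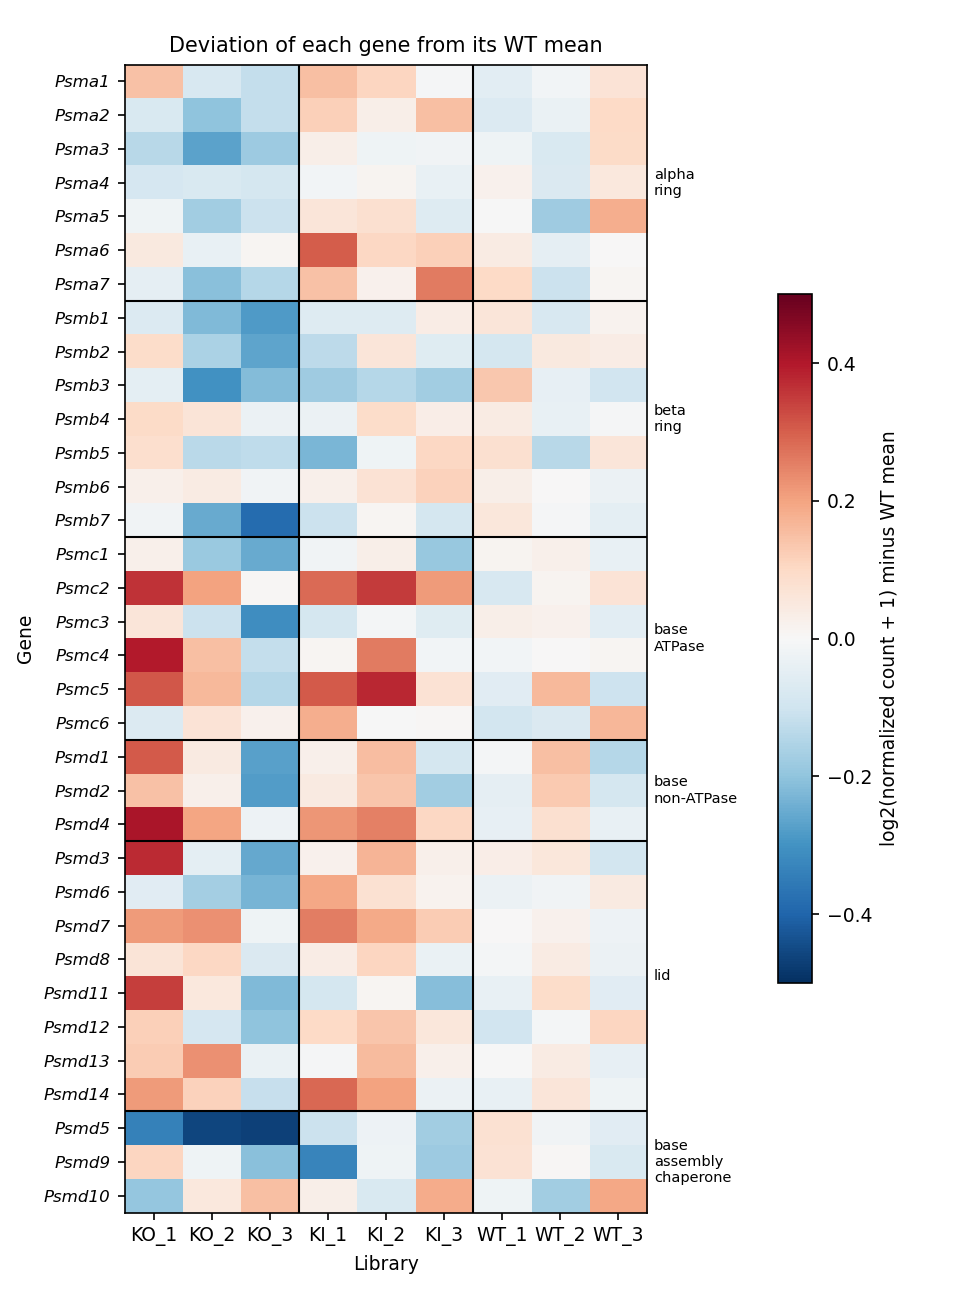
Deviation of each of 34 members (rows, by role, Psma8 is left out) from its own WT mean in each of the 9 libraries. Columns are KO, KI and WT libraries, values are log2(normalized count + 1), and colour gives the sign and size. Most cells are near 0, and Psmd5 is low in KO_1, KO_2 and KO_3.

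The 3 base assembly chaperones in the list bind the ATPases while the base is put together and leave the finished particle. Psmd5 (S5b), which holds the Psmc1 and Psmc2 part of the base, lies on chromosome 2 from 34849734 to 34874968 on the minus strand of GRCm38, and its exons overlap no other annotated gene. Its normalized count was 1749, 1607 and 1600 in KO, 2048, 2172 and 1959 in KI, and 2327, 2182 and 2124 in WT. On the authors' scaling all 3 KO libraries were below all KI and all WT libraries, while KI and WT overlapped. With equal totals 1 of the 3 chaperone genes lay below WT without overlap in KO (14.2% of all genes), and 0 lay above KO in KI (6.89%). The Psmd5 means were 1652 ± 84.3 in KO, 2060 ± 107 in KI and 2211 ± 105 in WT (SD, n = 3 each). Psmd5 fell in KO relative to WT by 0.42 on the log2 scale (95% interval -0.63 to -0.21, limma adjusted p = 0.0254), and the KO mean differed from the WT mean by -25.3%. KI was not distinguished from WT (log2 fold change -0.10, 95% interval -0.32 to 0.11, limma adjusted p = 0.723). KI exceeded KO by 0.32 (95% interval 0.10 to 0.53), with a limma adjusted p of 0.0695. The KO call was made in 12 of 21 alternatives, with adjusted p-values from 6.95e-04 to 0.148 and log2 fold changes from -0.46 to -0.38. It was lost without KO_2 (adjusted p = 0.093), KO_3 (0.0718), WT_1 (0.107), WT_2 (0.0733) or WT_3 (0.0614), without the 3 libraries with pancreatic transcripts (0.148), with equal totals (0.0846), without the variance trend (0.0582) and with only the 2 groups compared (0.0586).

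Psmd9 (p27), the chaperone of the Psmc3 and Psmc6 pair, had 2435, 2230 and 1960 normalized counts in KO, 1802, 2231 and 1998 in KI, and 2377, 2270 and 2149 in WT. The groups overlapped in every comparison, and its log2 fold change was -0.04 in KO and -0.18 in KI relative to WT (limma adjusted p = 0.872 and 0.609). Over its exons 25.5% of the length lies under a noncoding gene of the opposite strand, Gm26745, and the strand setting of the counting is not given in the sources used here. Psmd10 (gankyrin), the chaperone of Psmc4, had 454, 538 and 576 in KO, 529, 492 and 590 in KI, and 511, 461 and 594 in WT. Its groups overlapped, with log2 fold changes of 0.00 and 0.05 relative to WT. Per kilobase of exon the 3 chaperones had 273 (Psmd5), 298 (Psmd9) and 359 (Psmd10) normalized counts, below every subunit except Psma8. The other 31 subunits ran from 731 for Psmd1 to 5254 for Psma6 on that scale. The exon length joins the exons of all annotated transcripts, 7.23 kb for Psmd5 and 7.25 kb for Psmd9, so this ranking depends on it. Undivided, the mean counts of Psmd5 (1974) and Psmd9 (2161) were above that of Psmb5 (1226), and that of Psmd10 (527) was below it.

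**Figure D3:**
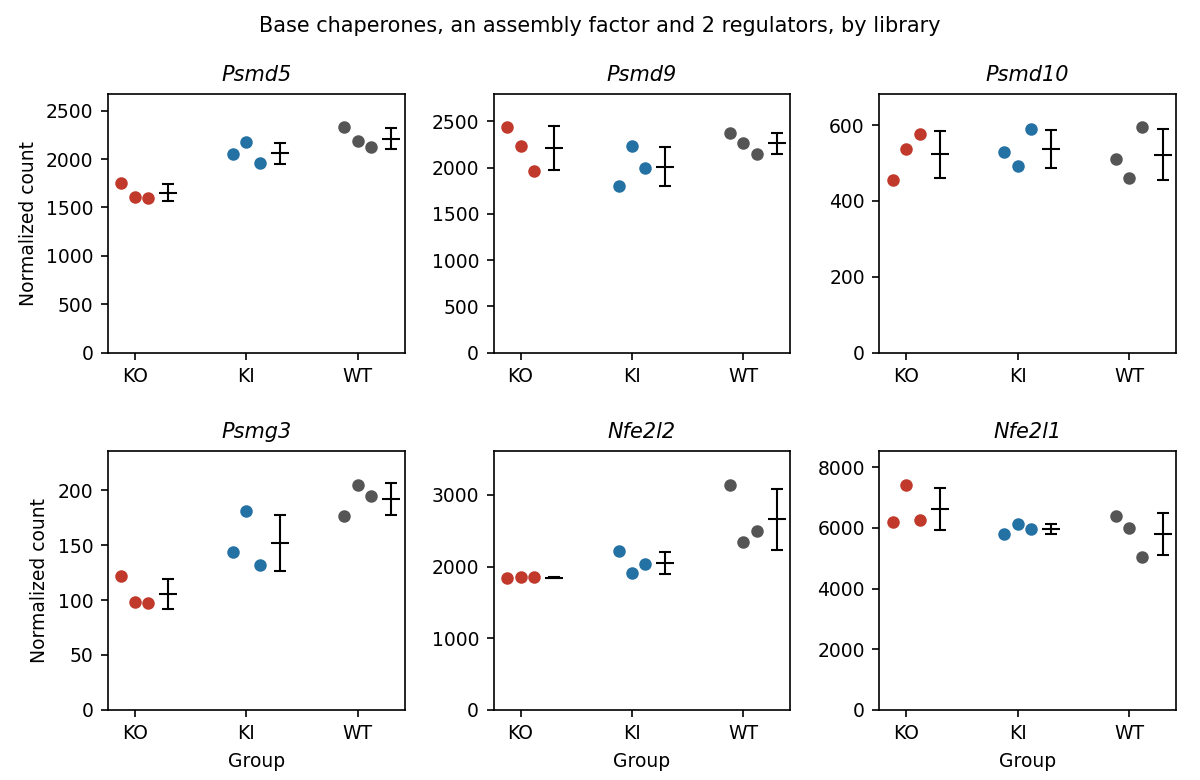
Normalized counts on the authors' scaling by library (points, with mean ± SD bars, n = 3) in KO, KI and WT. The genes are the chaperones Psmd5, Psmd9 and Psmd10, the assembly factor Psmg3 and the regulators Nfe2l2 and Nfe2l1. Psmd5 is at 1600 to 1749 in KO, under every KI and WT library, Psmg3 and Nfe2l2 are also lowest in KO, Psmd9 and Psmd10 overlap in every comparison, and every KI library of Nfe2l1 is below every KO library while both groups overlap WT.

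The alpha ring forms the outer rings of the core and its gate. Its median log2 fold change was -0.12 in KO against WT, negative for 7 of 8 genes, and 0.06 in KI against WT, positive for 5 of 8. None of the 8 was called in either comparison, with 0 at an unadjusted p under 0.05 and 0 by edgeR or DESeq2. Psma3 had 6961, 6355 and 6749 normalized counts in KO, 7813, 7542 and 7571 in KI, and 7549, 7260 and 8184 in WT. Every KO library was below every KI and WT library with the authors' scaling, though with equal totals no alpha gene separated KO from WT, and the KO difference was -0.20 on the log2 scale (95% interval -0.41 to 0.02, limma adjusted p = 0.244). Psma6 had 6412, 6042 and 6242 in KO, 7647, 6667 and 6734 in KI, and 6387, 6014 and 6206 in WT. On the authors' scaling KI was above both other groups without overlap, by 0.18 over WT (95% interval -0.04 to 0.39, limma adjusted p = 0.533). With equal totals 0 of the 8 alpha genes lay above WT without overlap in KI (4.4% of all genes). Between KI and KO the alpha ring had a median of 0.18 on the authors' scaling. There 8 of 8 genes were positive (51.0% of all genes) and 5 lay above KO without overlap (12.3%). The smallest limma adjusted p was 0.144 (Psma7). With equal totals 6 of 8 were positive there, against 40.4% of all genes, and 1 lay above KO without overlap, against 6.89% of all genes. Psma7 had 6097, 5582 and 6595 normalized counts in KI and 5332, 4757 and 4990 in KO, a difference of 0.28 on the log2 scale (95% interval 0.04 to 0.51). Psma2 had 4892, 4600 and 5005 in KI and 4275, 3925 and 4154 in KO, a difference of 0.23 (95% interval 0.02 to 0.44, limma adjusted p = 0.167). On the authors' scaling every KI library was above every KO library in both genes. Psma4 was the steadiest alpha gene, at 6044, 6077 and 6026 in KO, 6345, 6461 and 6237 in KI, and 6498, 6086 and 6635 in WT, with KO below WT by 0.08 on the log2 scale (-0.08). The remaining alpha genes, Psma1 and Psma5, overlapped in all 3 comparisons. Psma8, the testis form of Psma7, was barely present, at 4, 25 and 12 reads in KO, 37, 3 and 15 in KI, and 18, 24 and 23 in WT. At that depth no difference was detectable, and the 95% interval for KO against WT ran from -2.87 to 1.04 on the log2 scale.

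The beta ring carries the catalytic sites. Its median log2 fold change was -0.11 in KO and -0.04 in KI relative to WT, with 2 of 7 genes positive in each and none called (0 at an unadjusted p under 0.05, 0 by edgeR or DESeq2). Psmb5, the chymotrypsin-like site, had 1328, 1141 and 1147 normalized counts in KO, 1069, 1235 and 1347 in KI, and 1324, 1140 and 1306 in WT. All groups overlapped (log2 fold change -0.06 in KO and -0.05 in KI relative to WT). Psmb6, the caspase-like site, was among the steadiest members, with 5097, 5154 and 4944 in KO, 5086, 5265 and 5420 in KI, and 5107, 5008 and 4896 in WT. Its highest library was 1.11-fold its lowest, with log2 fold changes of 0.02 and 0.07. Psmb7, the trypsin-like site, had 7120, 6063 and 5533 in KO, 6702, 7265 and 6789 in KI, and 7503, 7187 and 6971 in WT. KO_1 lay within the WT range and the other KO libraries below it (log2 fold change -0.22, 95% interval -0.47 to 0.03, limma adjusted p = 0.267). Of its exon length 11.8% is shared with Nek6 on the opposite strand. The structural subunit Psmb3 had 3570, 2994 and 3177 in KO, 3268, 3346 and 3280 in KI, and 4060, 3594 and 3459 in WT. KI was below WT without overlap, by 0.16 on the log2 scale (limma adjusted p = 0.586), and KO overlapped WT. Psmb1 had 6806, 6115 and 5864 in KO, 6827, 6825 and 7318 in KI, and 7437, 6755 and 7223 in WT. On the authors' scaling KI was above KO without overlap, and KO_1 was the KO library that reached into the WT range (log2 fold change -0.19 for KO, limma adjusted p = 0.276). Psmb2 and Psmb4 overlapped in all comparisons on that scaling, and Psmb4 had log2 fold changes of 0.04 in KO and 0.03 in KI relative to WT. With equal totals 0 of the 7 beta genes lay above KO without overlap in KI (6.89% of all genes). Below WT without overlap there were then 2 in KO (14.2%) and 1 in KI (13.0%).

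The 6 ATPases Psmc1 to Psmc6 form the unfolding ring of the base. Their median log2 fold change was 0.06 in KO and 0.07 in KI relative to WT, with 4 of 6 positive in each. Psmc2, which contacts Psmd5 during assembly, had 5806, 5188 and 4536 normalized counts in KO, 5500, 5752 and 5236 in KI, and 4268, 4556 and 4732 in WT. On the authors' scaling every KI library was above every WT library, and KO overlapped WT through KO_3. The KI difference was 0.28 on the log2 scale (95% interval 0.03 to 0.53) and did not pass after adjustment (limma adjusted p = 0.377). The KO difference was 0.19 (95% interval -0.06 to 0.44, limma adjusted p = 0.33). Psmc3 had 6116, 5448 and 4736 in KO, 5524, 5828 and 5627 in KI, and 5997, 5962 and 5656 in WT. Its groups overlapped, and the KO libraries spanned more than the KI and WT libraries together (log2 fold change -0.12 in KO and -0.05 in KI relative to WT). Psmc5 had 4202, 3799 and 3073 in KO, 4192, 4398 and 3568 in KI, and 3256, 3796 and 3155 in WT. KI_3 was the KI library that reached into the WT range, and the KI difference was 0.25 (95% interval -0.06 to 0.56, limma adjusted p = 0.537). Psmc4 had 4754, 4009 and 3325 in KO, 3640, 4328 and 3578 in KI, and 3579, 3616 and 3640 in WT, so that its KO libraries stood on both sides of a narrow WT range. Psmc1 and Psmc6 overlapped in all comparisons on the authors' scaling, with log2 fold changes of -0.14 and 0.01 in KO relative to WT. None of the 6 was called in any comparison by limma, edgeR or DESeq2, and Psmc2 in KI against WT was the 1 case at an unadjusted p under 0.05 in the limma fits. With equal totals 0 of the 6 ATPase genes lay above WT without overlap in KI (4.4% of all genes). In KO 2 then lay above WT without overlap and 1 below it (14.4% and 14.2% of all genes).

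The other base subunits are the scaffold pair Psmd1 and Psmd2 and the ubiquitin receptor Psmd4. Psmd2 had the largest normalized count of the members, with 12442, 11418 and 9244 in KO, 11585, 12378 and 9963 in KI, and 10896, 12299 and 10563 in WT. All groups overlapped (log2 fold change -0.04 in KO and 0.00 in KI relative to WT). Psmd4 (Rpn10) had 4744, 4096 and 3507 in KO, 4162, 4256 and 3837 in KI, and 3471, 3773 and 3482 in WT. On the authors' scaling KI was above WT without overlap, and KO reached into WT through KO_3. Both differences were 0.19 on the log2 scale, with 95% intervals of -0.08 to 0.46 in each (limma adjusted p = 0.36 for KO and 0.58 for KI). Psmd1 had 6437, 5372 and 4311 in KO, 5291, 5799 and 4896 in KI, and 5175, 5775 and 4716 in WT. On the authors' scaling KO_1 was its highest and KO_3 its lowest library, and the log2 fold change was 0.03 in KO and in KI relative to WT. With equal totals 0 of these 3 base genes lay above WT without overlap in KI (4.4% of all genes), and 1 did in KO (14.4%).

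The lid holds the deubiquitinase Psmd14 (Rpn11), which cuts the chain from the substrate. Psmd14 had 2951, 2759 and 2350 normalized counts in KO, 3104, 2925 and 2494 in KI, and 2478, 2652 and 2509 in WT. Its groups overlapped, with log2 fold changes of 0.07 and 0.15 relative to WT (limma adjusted p = 0.767 and 0.676). Its inactive partner Psmd7 (Rpn8) had 3618, 3661 and 3073 in KO, 3732, 3560 and 3409 in KI, and 3130, 3168 and 3069 in WT. On the authors' scaling KI was above WT without overlap, by 0.19 (95% interval -0.03 to 0.41, limma adjusted p = 0.512). The small subunit Psmd8 (Rpn12) had 5916, 6077 and 5376 in KO, 5801, 6088 and 5526 in KI, and 5610, 5807 and 5536 in WT, with overlap everywhere and log2 fold changes of 0.03 and 0.04. For the 8 lid genes the median log2 fold change was 0.05 in KO and 0.08 in KI relative to WT, and none was called by limma, edgeR or DESeq2 in those comparisons. On the authors' scaling Psmd6 was the lid gene with KO below both other groups without overlap. It had 3146, 2910 and 2790 in KO, 3749, 3457 and 3311 in KI, and 3211, 3239 and 3377 in WT. Its KI difference from KO was 0.25 on the log2 scale (95% interval 0.04 to 0.46, limma adjusted p = 0.141). The scaffold subunit Psmd3 had 4938, 3688 and 3189 in KO, 3868, 4288 and 3876 in KI, and 3902, 3961 and 3579 in WT. Psmd11, which joins lid and base, had 6223, 5071 and 4202 in KO, 4601, 4928 and 4224 in KI, and 4775, 5221 and 4698 in WT. For both genes KO_1 was the highest and KO_3 the lowest of the 9 libraries on the authors' scaling. Psmd12 and Psmd13 overlapped in all comparisons on that scaling, and 10.1% of the exon length of Psmd13 is shared with Sirt3 on the opposite strand. With equal totals 0 of the 8 lid genes lay above WT without overlap in KI (4.4% of all genes), and 0 lay above KO (6.89%). In KO 2 lay above WT and 1 below it (14.4% and 14.2% of all genes).

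The KO libraries differed among themselves, and the regulatory particle genes did so more than the core genes. This was looked at after the values were seen, and it is a description. The median within-group SD of the members was 0.143 in KO, 0.0851 in KI and 0.0728 in WT on the log2 scale, beside 0.269, 0.226 and 0.193 over all genes. For the 17 regulatory particle genes (base and lid), the mean log2 deviation from the WT mean was 0.20, 0.06 and -0.15 in KO, 0.10, 0.15 and -0.01 in KI, and -0.03, 0.05 and -0.02 in WT. For the 14 core genes without Psma8 it was 0.00, -0.14 and -0.15 in KO, 0.01, 0.02 and 0.03 in KI, and 0.02, -0.06 and 0.03 in WT. In KO_1 the regulatory genes were thus high with the core at the WT level, in KO_2 the core was low with the regulatory genes a little high, and in KO_3 both were low.

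KO_1 exceeded KO_3 in 16 of 17 regulatory genes with a median fold of 1.28, in 14 of 14 core genes with a median fold of 1.08, and in 7760 of 15238 genes tested with a median fold of 1.01. These levels follow the scaling. With equal totals the regulatory genes were at 1.097-fold in KO_1 relative to KO_3 (13 of 17 higher), the core genes were 0.925-fold (3 of 14 higher) and all genes 0.868-fold. The ratio of summed regulatory to summed core counts needs no scaling. It was 1.281, 1.271 and 1.104 in KO, 1.158, 1.208 and 1.068 in KI, and 1.076, 1.2003 and 1.074 in WT, so the groups overlapped, with KO_1 and KO_2 above every other library. Over the 9 libraries the median pairwise Pearson r was 0.602 among regulatory genes, 0.407 among core genes and 0.201 between them, and with equal totals 0.599, 0.531 and 0.291. Libraries of a group share a genotype, and libraries also differ in depth and cell makeup. Beside this, hepatocyte markers took 6.29%, 4.84% and 4.08% of normalized counts in KO_1, KO_2 and KO_3, and the 6 neutrophil and monocyte markers 0.00029%, 0.00143% and 0.00283%. The 8 Kupffer cell markers took 0.0233%, 0.0181% and 0.0527%. Their part in the pattern was not tested.

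**Figure D4:**
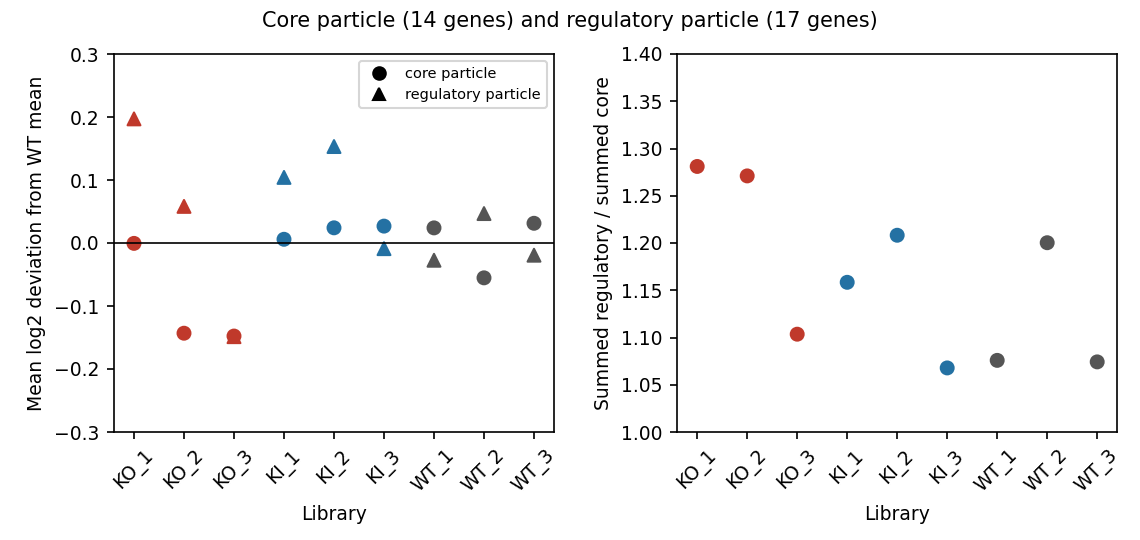
On the left, the mean log2 deviation from the WT mean for 14 core genes (circles) and 17 regulatory genes (triangles) in each library, and on the right, the summed regulatory over the summed core normalized count (KO red, KI blue, WT grey). The ratio is 1.281 in KO_1 and 1.271 in KO_2 and between 1.068 and 1.208 in the other 7 libraries.

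Most like the mean of the 35 members over the 9 libraries were D830044D21Rik (Pearson r = 0.968), Lipt1 (0.968), Ttc39b (0.958), Kdm1b (0.957) and Hbs1l (0.953), among all tested genes with a symbol. That mean is moved by Psma8. Without it the 5 nearest genes were Carm1 (0.971), Acox3 (0.97), Foxo4 (0.966), Fech (0.964) and Ccdc85c (0.958), where the median r over 14968 other genes was -0.02. The 5 names changed completely with 1 sparse member.

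Genes around the proteasome were counted from lists of the pathway. The interferon-inducible immunoproteasome subunits and the activator caps (Psme1 to Psme4) had 0 of 7 called by limma, edgeR or DESeq2 in each comparison. Of all genes limma called 8.83% in KO against WT, 0.0263% in KI against WT and 8.45% in KI against KO. Psmb8 was the 1 gene under an unadjusted p of 0.05 in KO against WT (25.0% of all genes). It was at 1193, 998 and 1336 normalized counts in KO and 866, 914 and 1011 in WT (log2 fold change 0.33, limma adjusted p = 0.14). KO_2 reached into the WT range. Between KI and KO the 1 gene was Psme3 (24.9% of all genes). It was at 3754, 4018 and 3474 in KI and 3415, 2738 and 2643 in KO, without overlap on the authors' scaling (log2 fold change 0.36, limma adjusted p = 0.0895). In KI against WT 0 of the 7 had an unadjusted p under 0.05 (11.6% of all genes).

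The core assembly factors Pomp and Psmg1 to Psmg4 build the alpha and beta rings. Psmg3 fell in KO, with 122, 98.3 and 97.7 normalized counts in KO, 144, 181 and 132 in KI, and 176, 205 and 195 in WT. On the authors' scaling all KO libraries were below all KI and WT libraries. KO was lower than WT by 0.86 on the log2 scale (-0.86, 95% interval -1.31 to -0.41, limma adjusted p = 0.0289). The call was lost in 7 of 21 alternatives, where the log2 fold change was -0.92 to -0.81: with equal totals (adjusted p = 0.0528), without the 3 libraries with pancreatic transcripts (0.184), and without KO_2 (0.104), KO_3 (0.0826), WT_1 (0.0755), WT_2 (0.102) or WT_3 (0.0905). Pomp, the maturation protein of the core, had 3926, 3537 and 3362 in KO, 4146, 4333 and 4161 in KI, and 4594, 4000 and 4301 in WT. On the authors' scaling KO lay below both other groups without overlap (log2 fold change -0.25 against WT, limma adjusted p = 0.149). In KI against WT limma, edgeR and DESeq2 called 0 of the 5 assembly factors, and 0 at an unadjusted p under 0.05. For KI against KO the 3 tools also called 0, with 4 of 5 under an unadjusted p of 0.05 (24.9% of all genes). Of these, Pomp, Psmg2 and Psmg3 were higher in KI, and Psmg4 was lower. Psmg4 had 157, 138 and 165 normalized counts in KI and 199, 220 and 209 in KO (log2 fold change -0.45, limma adjusted p = 0.125).

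Of 9 partner proteins outside the name pattern, such as the ubiquitin receptor Adrm1 and the deubiquitinases Usp14 and Uchl5, limma, edgeR and DESeq2 called 0 in each comparison. All 9 had a negative log2 fold change in KO against WT, with a median of -0.15, where 50% of all genes were positive. Among the 9, 1 passed an unadjusted p of 0.05 (25.0% of all genes). That was Usp14, at 2770, 2063 and 1784 normalized counts in KO and 2581, 2902 and 3007 in WT. KO_1 lay within the WT range (log2 fold change -0.38, limma adjusted p = 0.151).

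Among 7 regulators of proteasome genes, Nfe2l1, which drives the recovery of proteasome synthesis, had 6180, 7425 and 6254 normalized counts in KO, 5785, 6132 and 5977 in KI, and 6386, 5982 and 5029 in WT. On the authors' scaling KO and KI each overlapped WT, and every KI library was below every KO library. The log2 fold change was 0.19 in KO against WT (limma adjusted p = 0.361) and -0.15 in KI against KO (adjusted p = 0.501). Nfe2l2 (NRF2), the oxidative stress regulator, fell in KO, with 1836, 1850 and 1851 in KO, 2216, 1904 and 2040 in KI, and 3144, 2347 and 2490 in WT. On the authors' scaling KO was below KI and both were below WT, without overlap. The KO change was -0.52 on the log2 scale (95% interval -0.79 to -0.24, limma adjusted p = 0.0303), and the KI difference of -0.36 did not pass (adjusted p = 0.278). The KO call was lost in 8 of 21 alternatives, where the log2 fold change was -0.56 to -0.39: with equal totals (adjusted p = 0.0586), without the variance trend (0.0711), with only the 2 groups compared (0.0627), without the 3 libraries with pancreatic transcripts (0.172), and without KO_2 (0.0963), KO_3 (0.0716), WT_1 (0.106) or WT_3 (0.0659). Nfya, a subunit of the CCAAT-binding factor NF-Y, rose in KI relative to KO, with 810, 647 and 733 in KI and 551, 482 and 493 in KO, by 0.52 on the log2 scale (limma adjusted p = 0.0391). This call was lost in 11 of 21 alternatives (adjusted p from 0.0549 to 0.535, log2 fold change from 0.35 to 0.52): with equal totals, without the variance trend, with only the 2 groups compared, without the 3 libraries with pancreatic transcripts, and without any 1 of KO_2, KO_3, KI_1, KI_3, WT_1, WT_2 and WT_3. Over the list of 7, limma called 1 gene lower in KO against WT, where 4.2% of all genes were called lower. It called 1 higher in KI against KO, where 3.6% of all genes were called higher. In KI against WT limma called 0, with 2 at an unadjusted p under 0.05 (11.6% of all genes), 0 by edgeR and 1 by DESeq2.

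The 17 genes of ubiquitin supply and substrate delivery had 0 called by limma in KO against WT. There were 2 at an unadjusted p under 0.05 (25.0% of all genes), 0 by edgeR and 1 by DESeq2. In KI against WT limma, edgeR and DESeq2 called 0, with 1 at an unadjusted p under 0.05 (11.6% of all genes). The shuttle gene Ubqln4 rose in KI relative to KO, with 2418, 2709 and 2567 normalized counts in KI and 2013, 2010 and 1704 in KO, by 0.43 on the log2 scale (limma adjusted p = 0.032). This call was lost in 12 of 21 alternatives (adjusted p from 0.0518 to 0.39, log2 fold change from 0.32 to 0.51): with equal totals, without the variance trend, with only the 2 groups compared, without the 3 libraries with pancreatic transcripts, and without any 1 library other than KO_1.

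Other chaperone systems of protein quality control moved further in the same libraries. Of 17 heat shock chaperone genes controlled by HSF1, 3 were higher and 4 lower in KO against WT, 1 was higher in KI against WT, and 12 were higher in KI against KO, with medians of -0.44, 0.73 and 1.01 on the log2 scale. These 7, 1 and 12 limma calls stood beside 8.83%, 0.0263% and 8.45% of all genes called. By edgeR the calls were 6, 0 and 12, and by DESeq2 11, 9 and 12. The gene called in KI against WT was Hsph1, an HSP110 chaperone (log2 fold change 0.88, limma adjusted p = 0.0398), and its call was lost in 12 of 21 alternatives, with log2 fold changes there of 0.76 to 0.91. They were equal totals, no variance trend, a replicate block, edgeR, leaving out the 3 libraries with pancreatic transcripts, and leaving out any 1 of KO_2, KO_3, KI_1, KI_3, WT_1, WT_2 and WT_3. Hspa8, the constitutive cytosolic HSP70, had 23697, 20469 and 21407 normalized counts in KO, 73383, 66839 and 74040 in KI, and 45820, 41717 and 41617 in WT. The 3 groups did not overlap. Of the 8 subunits of the chaperonin TRiC, another ring of fixed composition, 1 was lower in KO against WT (Cct4), 0 were called in KI against WT (2 at an unadjusted p under 0.05, 0 by edgeR, 1 by DESeq2) and 4 were higher in KI against KO (3 by edgeR, 7 by DESeq2). In KO against WT edgeR called 0 of them and DESeq2 2. The Cct4 call (log2 fold change -0.35, limma adjusted p = 0.0426) was lost in 15 of 21 alternatives, with log2 fold changes there of -0.38 to -0.31. They were no filter on low values, equal totals, no variance trend, the 2 groups alone, a replicate block, edgeR, leaving out the 3 libraries with pancreatic transcripts, and leaving out any 1 library other than KO_1. The TRiC medians were -0.23, 0.18 and 0.40, beside -0.04, 0.04 and 0.07 for the proteasome genes. Earlier results of these data had shown the chaperone genes to move, so these lists serve as a scale and not as evidence.

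**Figure D5:**
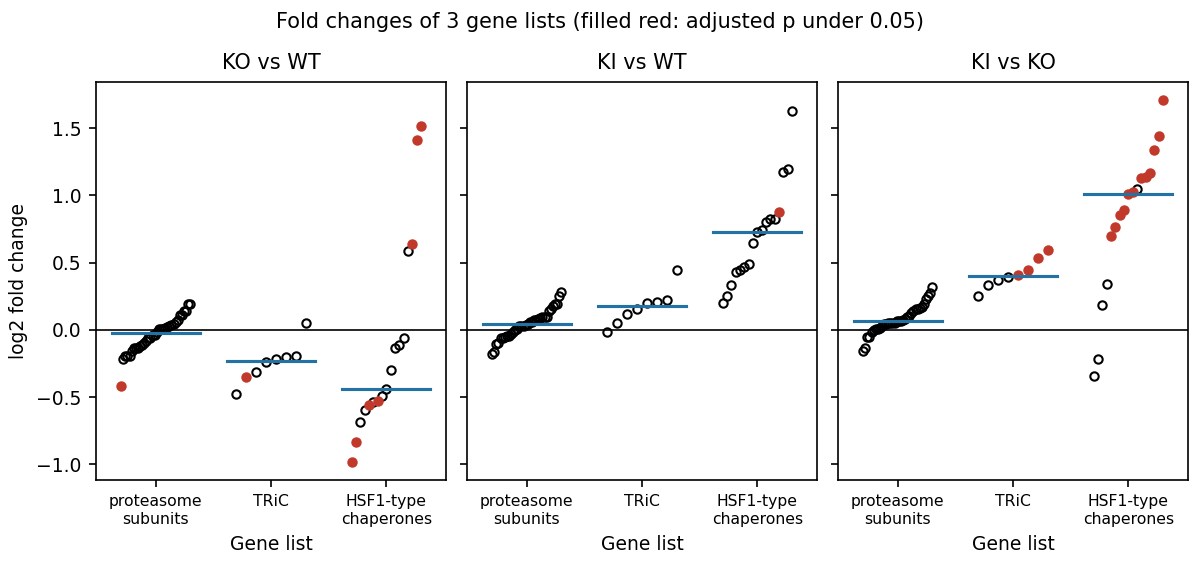
Log2 fold changes of 34 proteasome genes (Psma8 is left out), 8 TRiC genes and 17 HSF1-type chaperone genes in KO against WT, KI against WT and KI against KO, with blue bars at the medians and red points for adjusted p under 0.05. The proteasome genes lie close to 0 in each panel with 1 red point, Psmd5 in KO against WT, while 12 of 17 chaperone genes are red in KI against KO.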

How the data were processed

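RNA-seq libraries of 9 mouse livers, 3 each of KO, KI and WT, were prepared with a stranded mRNA kit, per the labels' protocols. The submitters' processing notes name TopHat2, Bowtie2, featureCounts and the build GRCm38. Versions, annotation, strand setting, filters and scaling tool are not given in the sources used here. The authors deposited 1 table of signal values, called normalized counts. In every library 99.995% or more of the values were whole multiples of a step (tolerance 0.0051, 5 values not whole), so reads were recovered by undoing size factors of 0.8921 to 1.1051. Of the rows, 554 have no symbol.

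Genes with a mean of at least 10 (15238) were tested two-sided as log2(value + 1) with limma 3.58.1 in R 4.3.3, with a variance trend, 1 mean per group over the 9 libraries (6 residual degrees of freedom) and Benjamini-Hochberg adjustment, a call being an adjusted p under 0.05. As alternatives, DESeq2 1.42.0 and edgeR 4.0.16 were run on recovered reads. Others were the pseudocount, the filter on low values, equal totals, TMM, no variance trend, 2 groups alone, a replicate block, and leaving out libraries. Libraries are named by the replicate number of the title, which differs from that of the description. Replicates were checked for duplicates: for the closest pair, chi-square per degree of freedom was 68.1, far above sampling noise.

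Members and lists were chosen with earlier results of these data known. Named members were the called ones, the catalytic subunits, Psmd14, Psmd4, the 3 chaperones, and in each role the smallest and largest p in KI against WT. Pathway genes were named if called, and otherwise from the smallest p. All other members given with values, Pomp, Nfe2l1 and Hspa8 were named after their values were seen. Gene positions and exon lengths are from GENCODE M21 (GRCm38), and promoter windows from RefSeq (GRCm38.p6). Reads from processed pseudogenes of subunit genes may be shared with them. The assembly factor Paaf1 and protein sequences were not analysed here, and 1 result of the ubiquitin list is not reported here. Figures were drawn with Python 3.11 and matplotlib 3.10.9.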

Additional observations from a re-analysis of the deposited data

How the results depend on the processing

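Psmd5 was called in KO under 12 of 21 alternatives, and its fold change kept its sign in all 21. The members called in KO against WT were 0 with equal totals, without the variance trend, with only the 2 groups compared, and without the 3 libraries with pancreatic transcripts (KI_1, KI_3 and WT_3, which leaves KI a lone library assumed to vary like the others). In KI against KO DESeq2 called 1 member. With equal totals the members' median was -0.0593 in KI against WT and -0.0384 in KI against KO. All genes called in KO against WT were 800 without the trend, 871 with 2 groups, 30 without the 3 libraries and 2295 with DESeq2, against 1346. In KI against KO these counts were 680, 608, 4 and 2287, against 1287. In KI against WT they were 0, 28, 0 and 372, with 1 by edgeR, 8 without the filter, 7 at a minimum mean of 50 and 7 with equal totals, against 4. Leaving out each library in turn gave 0 to 1 members called in KO against WT, 0 in KI against WT and 0 to 1 in KI against KO. The medians ran from -0.1143 to 0.0055, from 0.0068 to 0.0729 and from 0.0148 to 0.152 in those comparisons, and all genes called from 501 to 2516, from 0 to 35 and from 400 to 2301. Without KO_1 Psmd5 was also called in KI against KO (log2 fold change 0.36, adjusted p = 0.0414). Where a result moved, the cause was not tested. Same-numbered libraries deviated together in 3 of 9 pairs (r from -0.14 to 0.57), and a library correlated best with its own number in 9 of 18 cases. This check used the title numbers alone, so it cannot exclude a pairing or a shared batch, and the main fit did not pair the libraries. With a replicate block the members called were 1, 0 and 0, all genes called 1551, 3 and 1500, and Psmd5 in KO had an adjusted p of 0.0301.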
